A study of Mus musculus with 16 samples.

Results

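Skin T cells with Pdcd1 transcripts were described by every other gene in the same cells. Pdcd1 encodes PD-1, an inhibitory receptor. The members were chosen by the measured Pdcd1 count itself, as the skin cells with a raw count of at least 1, and were set against the skin cells with 0. Their Pdcd1 level is therefore a description and no result. They numbered 378 of 1224 skin cells, in a table of 5727 cells in all, and the remaining 846 skin cells made up the Pdcd1-zero side. All were CD8+Thy1.1+ Pmel cells, T cells whose transgenic antigen receptor recognizes gp100, a protein of melanoma and pigment cells. They were taken from the skin of C57BL/6 mice aged 16 weeks with vitiligo that accompanied melanoma (patchy autoimmune depigmentation), at day 45 after tumor surgery. Lung, liver and draining lymph node cells of such mice were also profiled, by single-cell RNA sequencing. Pmel cells share 1 receptor, so the cells do not stand for a natural repertoire, and the sources used here do not give the number of mice pooled.

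Skin was taken as 1 library, because the 4 skin titles differ only in a lane-like ending and the columns name the tissue only. Cells are not replicates, so no difference was tested and no p-value is given. Every interval below is a 95% interval for counting error alone, exact Poisson for ratios of counts and exact Clopper-Pearson for shares of cells. Genes are compared by pooled counts per 1000000 counts (CPM), a level, and by the ratio of Pdcd1-positive over Pdcd1-zero cells. The Pdcd1-positive cells summed to 1143836 counts and the Pdcd1-zero cells to 2148374. Median depth was 2757 counts in Pdcd1-positive cells and 2463 in Pdcd1-zero cells, so the split also sorted cells by depth. Before shares of cells were compared, every skin cell was thinned to 1852 counts, which left out 15 Pdcd1-positive and 107 Pdcd1-zero cells below that depth and used 363 and 739. The Pdcd1-zero side necessarily includes cells whose Pdcd1 transcripts were not captured. Of the skin barcodes, 7 also occurred in lung and 4 in lymph node, and 5 of these 11 cells were Pdcd1-positive. The 7 CD8 T cell markers summed to 9939 CPM in Pdcd1-positive and 10136 CPM in Pdcd1-zero cells. Genes of gamma-delta T cells (Trdc, Tcrg-C2 or Cd163l1) had a raw count in 14.3% of Pdcd1-positive and 19.4% of Pdcd1-zero cells. Of 8 myeloid marker genes in the table (10 listed), Lyz2, Csf1r and Fcgr3 had 0 counts on both sides, and at least 1 of the others had a count in 62.7% of Pdcd1-positive and 59.3% of Pdcd1-zero cells, mostly Cst3 (50.3% and 47.2%) and Cd74 (23.5% and 21.4%). H2-Aa, a gene of antigen-presenting cells, had 17 counts in Pdcd1-positive and 9 in Pdcd1-zero cells. In the same list H2-Ab1 had 20 and 37 counts and Cd74 had 188 and 376. The 8 myeloid genes summed to 460 CPM in Pdcd1-positive and 459 CPM in Pdcd1-zero cells. Of 5 B cell genes in the table (6 listed), Cd79a and Ms4a1 had 0 counts, and the 5 summed to 6.99 CPM in Pdcd1-positive and 11.6 CPM in Pdcd1-zero cells. The part of such RNA in the results was not tested.

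PD-1 is an Ig superfamily receptor that recruits the phosphatase SHP-2 and dampens signals from the T cell receptor and CD28 when it meets its ligands PD-L1 and PD-L2. The gene is switched on by antigen receptor signaling through NFAT, is kept on in chronically stimulated (exhausted) T cells, and is also part of the program of resting tissue-resident memory T cells. In skin, resident memory CD8+ T cells are held in the epidermis by CD103 (Itgae) and CD69, and such cells specific for melanocyte antigens are known to maintain vitiligo.

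Pdcd1 transcripts were common in skin and liver and scarce in lung and lymph node. Pdcd1 stood at 272 CPM (254–290) in skin, against 154 CPM (137–173) in liver, 21.4 CPM (18.4–24.9) in lung and 28.5 CPM (23.8–33.8) in lymph node. At an equal depth of 1886 counts a Pdcd1 count was found in 27.0% of skin cells (24.3–29.7), 23.4% of liver cells (19.9–27.3), 3.42% of lung cells and 5.09% of lymph node cells. The intervals of skin and liver overlapped in this share but not in CPM. No cell type that should lack Pdcd1 was in the libraries to give a floor for free RNA, and the lung share was the lowest seen. In skin, 188 of the 378 members (49.7%) had a single Pdcd1 count, 72 had 2 and 118 had 3 or more. The 118 cells with 3 or more held 562 of the 894 Pdcd1 counts (62.9%), and the highest cell had 14. The variance of Pdcd1 counts over cells was 3.43 times their mean in skin, against 1.86 in liver, 1.31 in lung and 1.28 in lymph node. The means themselves were 0.730, 0.534, 0.0745 and 0.0794 counts per cell. This ratio also depends on the mean, so it does not rank the tissues by how unevenly Pdcd1 was spread over cells.

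**Figure D1:**
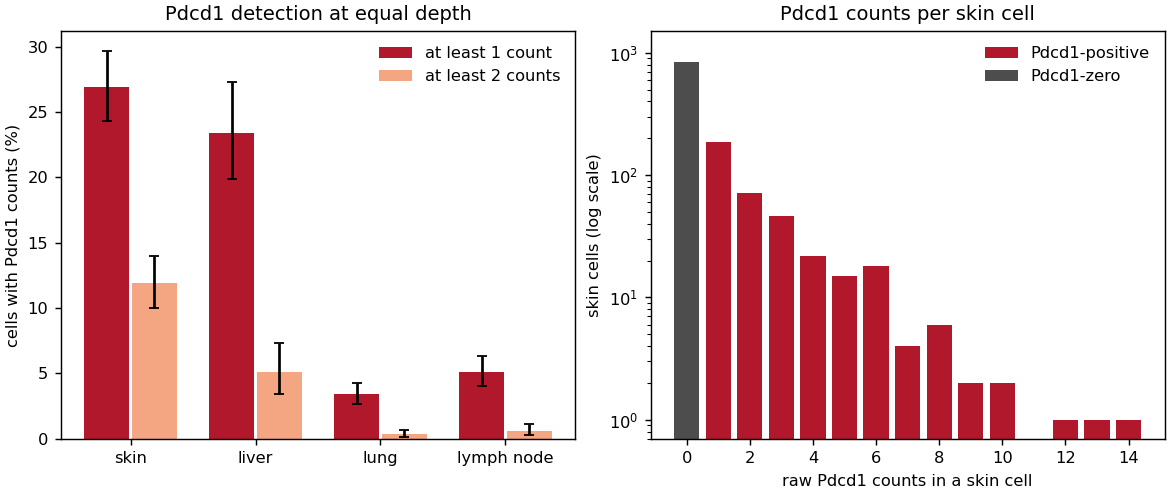
Left, share of cells of each tissue with at least 1 or at least 2 Pdcd1 counts after thinning to 1886 counts (bars, percent; error bars, 95% Clopper-Pearson). Right, number of skin cells (log scale) by raw Pdcd1 count, with 846 cells at 0 and a tail to 14 counts.

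Pdcd1 and the chemokine genes Ccl3 and Ccl1, 2 of the genes whose levels stood farthest apart between the sides, are shown by the 250 bases before their RefSeq transcript starts on GRCm38.p6. All 3 lie on the minus strand, and capitals mark the core letters bound by NFAT factors, GGAAA on either strand.
Pdcd1, chr1:94052554-94052803: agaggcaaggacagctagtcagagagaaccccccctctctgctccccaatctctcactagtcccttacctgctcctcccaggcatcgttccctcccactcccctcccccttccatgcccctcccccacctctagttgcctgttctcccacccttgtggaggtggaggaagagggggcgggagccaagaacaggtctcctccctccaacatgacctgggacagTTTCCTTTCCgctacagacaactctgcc
Ccl3, chr11:83649379-83649628: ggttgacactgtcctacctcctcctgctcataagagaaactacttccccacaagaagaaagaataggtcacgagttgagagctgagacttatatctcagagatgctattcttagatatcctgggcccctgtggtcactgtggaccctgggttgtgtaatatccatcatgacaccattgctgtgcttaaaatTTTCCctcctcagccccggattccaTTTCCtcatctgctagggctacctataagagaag
Ccl1, chr11:82179813-82180062: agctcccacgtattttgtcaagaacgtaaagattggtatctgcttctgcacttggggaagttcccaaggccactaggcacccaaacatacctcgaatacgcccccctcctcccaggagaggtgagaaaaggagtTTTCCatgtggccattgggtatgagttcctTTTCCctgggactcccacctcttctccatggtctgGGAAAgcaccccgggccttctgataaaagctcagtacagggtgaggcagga
The Pdcd1 window held 2 such cores next to each other, starting 28 and 23 bases before the transcript start. The Ccl3 window held 2 and the Ccl1 window 3. A core of this length occurred in 55.6% of all 32851 RefSeq promoter windows, so its presence singles out nothing. It was in 11 of the 16 windows of the 15 genes named as higher below (13 of them had a window) and in 8 of the 12 windows of the 15 named as lower (9 had a window). The AP-1 site TGANTCA, searched on both strands, was in 3 windows of the higher and 0 of the lower genes, against 6.75% of all windows. The NR4A site AAAGGTCA, also on both strands, was in 0 windows of either set, against 1.34% of all.

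Most of the transcriptome was alike on the 2 sides. Of 3534 genes with at least 100 summed skin counts, Pdcd1 left out, 94.9% lay within 1.5-fold, and the median log2 ratio was -0.01. In Pdcd1-positive cells 106 genes (3%) were at least 1.5-fold higher and 75 (2.12%) at least 1.5-fold lower. From the 3534 genes 15 in each direction were named by how far their interval stayed from a ratio of 1, with and without the cell holding most of the gene's counts. The 15 higher genes were granzymes, chemokines, Ifitm genes, the surface protein genes Tnfrsf9, Lag3 and Cd83, and Plac8, Irf8, AA467197 and Uap1. Their shares of cells at equal depth come from the same cells and are given below as a description.

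**Figure D2:**
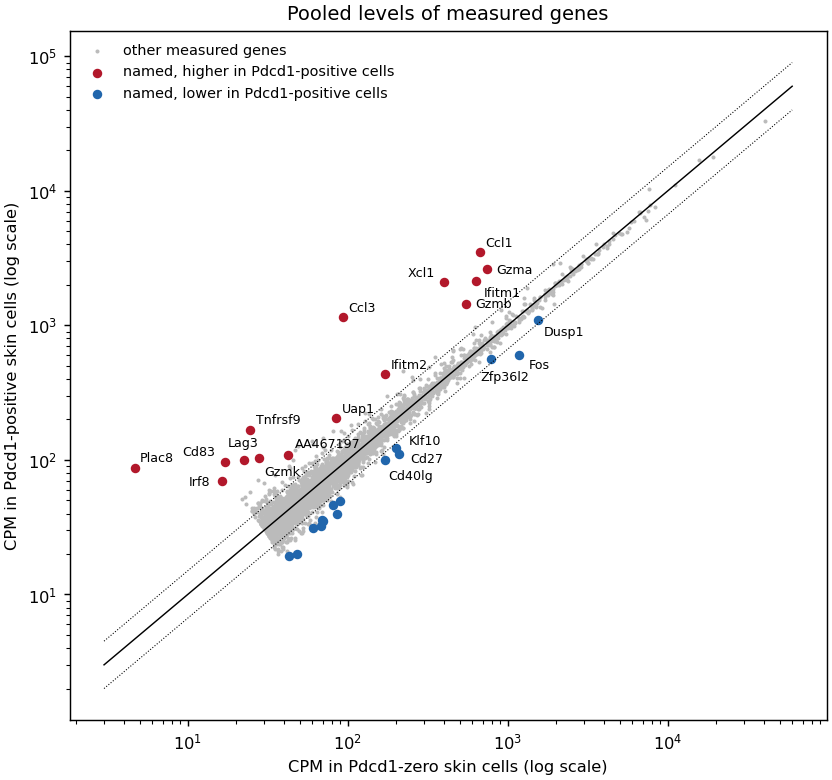
Pooled CPM of 3534 measured genes in Pdcd1-positive (vertical) and Pdcd1-zero (horizontal) skin cells, both on log scales, with the solid line at equality and dotted lines at 1.5-fold. Plac8 and Ccl3 lie farthest above the line, and Fos and Cd27 are among the genes below it.

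The granzyme genes Gzma, Gzmb and Gzmk, encoding serine proteases of cytotoxic granules, were higher in Pdcd1-positive cells. Gzma stood at 2630 CPM in Pdcd1-positive and 747 CPM in Pdcd1-zero cells, a ratio of 3.52 (3.31–3.74), and was detected in 39.1% against 22.2% of cells. Its ratio was 2.80 without its top 5 cells. With the Pdcd1-zero cells reweighted to the depths of the Pdcd1-positive cells it was 2.63. Gzmb was at 1439 CPM in Pdcd1-positive against 550 CPM in Pdcd1-zero cells, with detection in 49.0% (43.8–54.3) and 30.4% (27.1–33.9). Its ratio of 2.62 was 2.11 without its top 5 cells and 2.32 with the same reweighting. Gzmk, a granzyme often found in less differentiated effector cells, was at 103 CPM in Pdcd1-positive and 27.9 CPM in Pdcd1-zero cells, with shares of 13.2% and 3.79%. These 3 were the only genes past 1.5-fold among the 10 measured of 16 listed cytotoxic genes, with 0 lower and a list median log2 ratio of 0.19. Other cytotoxic genes lay close to equality, the granule membrane gene Nkg7 at a ratio of 1.06 (1.03–1.10) and the cathepsin gene Ctsw at 1.05 (0.978–1.12). The perforin gene Prf1 was below the minimum count, with 19 counts in Pdcd1-positive and 35 in Pdcd1-zero cells.

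Ifitm1 and Ifitm2, interferon-inducible membrane proteins that restrict virus entry, differed in share of cells as well as in level. Ifitm1 was detected in 43.0% of Pdcd1-positive cells (37.8–48.2) and 18.9% of Pdcd1-zero cells (16.2–22.0), with pooled levels of 2156 and 635 CPM. Its ratio of 3.39 was 2.74 with the Pdcd1-zero cells reweighted for depth and 3.53 without its top 5 cells. Ifitm2 was detected in 32.0% of Pdcd1-positive and 15.2% of Pdcd1-zero cells, with a CPM ratio of 2.53 (2.21–2.91). The 2 genes are neighbors on chromosome 7 and related in sequence, and how shared reads were divided between them cannot be seen in counts. Interferon-stimulated genes as a list did not show the same difference: of 16 measured of 30 listed, 1 was past 1.5-fold, Isg15 at a ratio of 1.54 (1.28–1.84) that was 1.27 without its top 5 cells, and the median log2 ratio was 0.14.

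The chemokines were the list with the highest median ratio of the 24 lists, and their levels came from few cells. Of 6 measured of 8 listed chemokine genes, 4 were past 1.5-fold in Pdcd1-positive cells, 0 were lower, and the median log2 ratio was 1.89. Ccl3, a chemokine that draws inflammatory leukocytes, stood at 1155 CPM in Pdcd1-positive and 93.1 CPM in Pdcd1-zero cells, a ratio of 12.4 (10.7–14.5). It was detected in 14.0% of Pdcd1-positive cells (10.6–18.1) and 10.3% of Pdcd1-zero cells (8.19–12.7), intervals that overlapped. Without the 5 cells with most Ccl3 the ratio was 2.36 (1.95–2.86). Ccl1, the ligand of CCR8, stood at 3518 CPM in Pdcd1-positive and 667 CPM in Pdcd1-zero cells, a ratio of 5.27 that was 3.46 without its top cell, 2.45 without its top 5 and 2.98 with depth matched by reweighting the Pdcd1-zero cells to the depths of the Pdcd1-positive cells. Its share was 20.1% of Pdcd1-positive (16.1–24.6) and 11.9% of Pdcd1-zero cells (9.66–14.5). Xcl1, the ligand that draws XCR1+ cross-presenting dendritic cells, was at 2097 CPM in Pdcd1-positive and 398 CPM in Pdcd1-zero cells. Its ratio, also 5.27, was 2.57 without its top cell, 2.46 without its top 5 and 3.46 with depth matched, and its shares were 26.4% and 18.3%. Cxcl10, a ligand of CXCR3, had a ratio of 2.61 (2.02–3.39) that was 1.14 without its top 5 cells. At equal depth at least 1 of Ccl1, Ccl3 and Xcl1 was found in 45.2% of Pdcd1-positive cells (40.0–50.5) and 32.7% of Pdcd1-zero cells (29.4–36.3).

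The 5 skin cells with most Ccl3 all belonged to the members. They held 454, 181, 163, 145 and 134 Ccl3 counts and 5, 8, 3, 6 and 14 Pdcd1 counts, the last being the Pdcd1-highest cell of the library. Their total depths were 5938, 7864, 3611, 10462 and 5048 counts, all above the members' median of 2757. Together they held 1077 of the members' 1321 Ccl3 counts (81.5%) and 2.88% of the members' counts of all genes. The same cells held 56.1% of the members' Xcl1 counts, 38.8% of Ccl1 and 45.6% of Ifng. The cell with 145 Ccl3 counts alone held 1410 Ccl1 and 1241 Xcl1 counts. Fos was at 0, 1, 2, 7 and 0 counts in them. Whether any of the 5 droplets held more than 1 cell was not tested beyond doublet calls by Scrublet. Without the skin cells called doublets the ratio of Ccl3 was 12.5 and that of Xcl1 was 5.36.

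Ifng, the cytokine by which CD8+ T cells act on keratinocytes in vitiligo, followed these cells. Ifng was at 2874 CPM in Pdcd1-positive and 1911 CPM in Pdcd1-zero cells, a ratio of 1.5 (1.44–1.57), but 0.843 without its top 5 cells and 0.889 without the deepest 5% of cells. It was 2.02 for cells with at least 2 Pdcd1 counts and 7.62 in the 42 Pdcd1-positive and 115 Pdcd1-zero cells without Nr4a1 counts, where Ccl3 was at 61.1 and Ccl1 at 15.6. At equal depth Ifng was detected in 68.6% of Pdcd1-positive and 71.0% of Pdcd1-zero cells. Tnf, the other main inflammatory cytokine of these cells, was detected in 17.6% of Pdcd1-positive and 26.7% of Pdcd1-zero cells and had a CPM ratio of 0.790 (0.666–0.934), within 1.5-fold. Areg, an epidermal growth factor ligand, had a ratio of 2.54 that was 1.07 without its top 5 cells, and Lta, or lymphotoxin alpha, had a ratio of 1.70 (1.20–2.40) that was 1.30 without its top cell. Of 10 measured of 18 listed cytokines 3 were thus past 1.5-fold higher and 0 lower, with a median log2 ratio of 0.32.

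Among TNF superfamily and costimulatory genes the 2 directions balanced. Of 15 measured of 20 listed, 3 were at least 1.5-fold higher, 3 at least 1.5-fold lower, and the median log2 ratio was -0.03. Tnfrsf9, which encodes 4-1BB, a costimulatory receptor displayed after antigen encounter, was at 168 CPM in Pdcd1-positive and 24.7 CPM in Pdcd1-zero cells, a ratio of 6.80 (5.0–9.41) and 3.96 (2.83–5.61) without its top 5 cells. It was detected in 11.3% of Pdcd1-positive cells (8.23–15.01) and 4.19% of Pdcd1-zero cells (2.87–5.90). The ligands Tnfsf11 (RANKL) and Tnfsf9 (4-1BB ligand) had ratios of 2.0 (1.49–2.68) and 1.64 (1.28–2.09), but Tnfsf11 was at 1.44 without its top 5 cells and Tnfsf9 at 1.46 without its top cell. On the other side, the memory-associated receptor Cd27 was at 110 CPM in Pdcd1-positive and 210 CPM in Pdcd1-zero cells, detected in 19.3% (15.4–23.7) and 28.3% (25.1–31.7). Cd40lg, the CD40 ligand, which some CD8+ T cells use to activate antigen-presenting cells, was at 101 CPM in Pdcd1-positive and 170 CPM in Pdcd1-zero cells, detected in 13.5% and 23.0%. The death ligand Tnfsf10 (TRAIL) had a ratio of 0.660 (0.405–1.04), an interval that spanned 1, and 0.762 with depth matched.

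Inhibitory receptors other than Pdcd1 were mixed. Of 20 listed inhibitory and exhaustion genes 9 were measured, 3 of them were at least 1.5-fold higher and 1 lower, and the median log2 ratio was 0.12. Lag3, a receptor for MHC class II, was at 101 CPM in Pdcd1-positive and 22.3 CPM in Pdcd1-zero cells, a ratio of 4.50 (3.19–6.44) that was 2.17 (1.44–3.27) without its top 5 cells. Its shares were 8.26% of Pdcd1-positive (5.65–11.6) and 3.92% of Pdcd1-zero cells (2.64–5.59). Havcr2, which encodes TIM-3, was at 57.7 CPM in Pdcd1-positive and 24.7 CPM in Pdcd1-zero cells, a ratio of 2.34 (1.60–3.42). Ctla4, which competes with CD28 for its ligands, was at 62.1 CPM in Pdcd1-positive and 34.4 CPM in Pdcd1-zero cells, a ratio of 1.80 (1.28–2.53). Cd244, the SLAM family receptor 2B4, went the other way, at 31.5 CPM in Pdcd1-positive and 60.5 CPM in Pdcd1-zero cells. At least 2 of Lag3, Havcr2 and Ctla4 were found together in 13 of 363 Pdcd1-positive cells (3.58%) and 4 of 739 Pdcd1-zero cells (0.541%). These 3 are the list members at least 1.5-fold higher in the same cells, so their joint share is a description and no separate result. Tox, the factor that sustains exhaustion, was below the minimum count and stood at 14.0 CPM in Pdcd1-positive and 14.4 CPM in Pdcd1-zero cells. The high-affinity interleukin 2 receptor chain Il2ra, also below it, had 61 counts in Pdcd1-positive and 24 in Pdcd1-zero cells and was detected in 7.16% and 1.62%. The CD28 family, PD-1 ligands and phosphatases had 6 of 10 members measured and 0 past 1.5-fold in either direction, among them Icos at a ratio of 1.41 and Cd28 at 0.931.

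The remaining higher genes were of other kinds. Plac8, a small cysteine-rich protein, had the highest ratio, 18.8 (9.80–40.4), at 87.4 CPM in Pdcd1-positive and 4.65 CPM in Pdcd1-zero cells. This rests on 100 against 10 counts, of which 5 members held 52, and the ratio without them was 9.17 (4.58–20.3). Irf8, an interferon regulatory factor, was at 69.9 CPM in Pdcd1-positive and 16.3 CPM in Pdcd1-zero cells, a ratio of 4.29 that was 2.02 without its top 5 cells. Cd83, a surface protein of activated lymphocytes and dendritic cells, had a ratio of 5.63, but 5 members held 84 of its 148 counts and without them the ratio was 1.40 (0.820–2.36). AA467197 and Uap1, an enzyme that makes the UDP-GlcNAc sugar donor, had ratios of 2.58 (1.95–3.42) and 2.40 (1.97–2.94). Uap1 was detected in 25.3% of Pdcd1-positive and 13.8% of Pdcd1-zero cells. Of 15 measured of 21 listed transcription factors, 5 were at least 1.5-fold higher (Irf8, Stat4, Stat3, Hif1a and Bhlhe40), 0 lower, and the median log2 ratio was 0.21. Stat4, which relays interleukin 12, had a ratio of 2.58 (1.82–3.67), and Bhlhe40, a regulator of resident memory cell metabolism, was detected in 45.5% of Pdcd1-positive and 31.1% of Pdcd1-zero cells. In the NFAT and NF-kB pathway 2 of 13 measured of 20 listed genes were higher and 0 lower, with a median log2 ratio of 0.29. They were the NF-kB subunits Rel, at a ratio of 2.01 (1.62–2.48), and Nfkb1, at 1.5 (1.20–1.87), which was 1.45 without its top cell.

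Several genes of the AP-1 and MAP kinase response were on the lower side. Fos, a subunit of AP-1, was at 607 CPM in Pdcd1-positive and 1182 CPM in Pdcd1-zero cells, a ratio of 0.513 (0.471–0.558), and was detected in 51.5% (46.2–56.8) against 63.5% (59.9–66.9). Dusp6, a phosphatase of the kinase ERK, was at 35.0 CPM in Pdcd1-positive and 69.8 CPM in Pdcd1-zero cells, detected in 4.13% and 10.7%. Dusp1, a phosphatase of stress-activated kinases, was at 1098 CPM in Pdcd1-positive and 1551 CPM in Pdcd1-zero cells, a ratio of 0.708 (0.663–0.755), within 1.5-fold. Jun, another AP-1 subunit, and the early factor Klf4 had ratios of 0.558 (0.367–0.830) and 0.650 (0.518–0.809), but 0.722 and 0.730 with depth matched. Of 22 measured of 27 listed immediate early genes 4 were at least 1.5-fold lower, 0 higher, and the median log2 ratio was -0.15, or 0.39 in the few cells without Nr4a1 counts (42 Pdcd1-positive and 115 Pdcd1-zero). Other members lay near equality. Nr4a1, a nuclear receptor induced by antigen receptor signaling, was at 1432 CPM in Pdcd1-positive and 1375 CPM in Pdcd1-zero cells, a ratio of 1.04 (0.980–1.11), and Nr4a3 had a ratio of 1.03. Klf10, an early target of TGF-beta, was at 122 CPM in Pdcd1-positive and 201 CPM in Pdcd1-zero cells, detected in 16.3% and 27.7%, with a ratio of 0.610 that was 0.692 with depth matched. Zfp36l2, which binds AU-rich mRNAs, was at 559 CPM in Pdcd1-positive and 786 CPM in Pdcd1-zero cells, within 1.5-fold.

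The other named lower genes were scarce and of no single list. They were Asxl2, Dusp19, Actn2, Lpar6, Nebl, Iqgap2 and Impact, with ratios between 0.419 (Asxl2) and 0.575 (Impact, 0.731 with depth matched). Actn2 and Nebl encode actin-binding proteins best known in muscle, and Lpar6 a receptor for lysophosphatidic acid. Actn2 was at 39.3 CPM in Pdcd1-positive and 85.2 CPM in Pdcd1-zero cells.

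**Figure D3:**
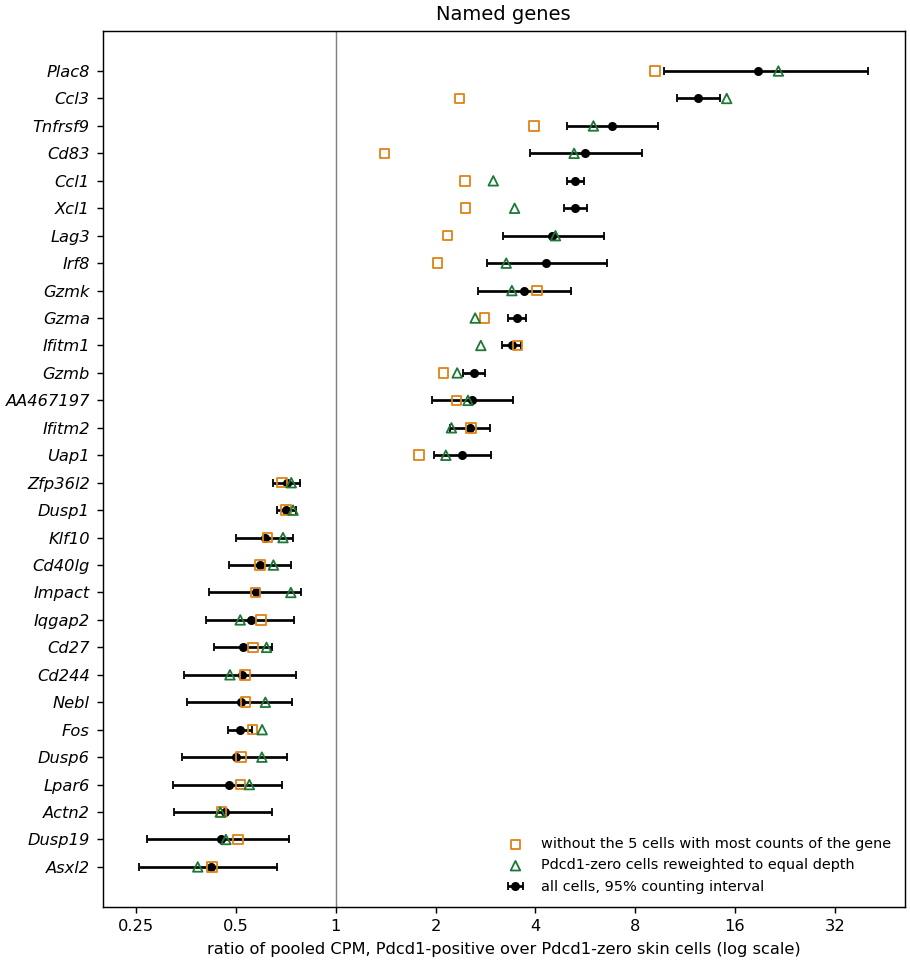
Ratio of pooled CPM, Pdcd1-positive over Pdcd1-zero skin cells (log scale), for the 30 named genes with 95% counting intervals, and the ratios without the 5 cells with most counts of each gene and with depth matched. Ccl3, Cd83, Ccl1 and Xcl1 move most when 5 cells are left out, while Ifitm1, Ifitm2 and Gzmk do not move down.

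Genes of residency, recirculation and T cell identity are set against all measured genes, of which 3% were at least 1.5-fold higher and 2.12% lower. The shares were 4.55% higher and 4.55% lower for residency genes and 6.25% and 12.5% for recirculation genes, each from 1 or 2 genes. Of 22 measured of 29 listed residency genes 1 was at least 1.5-fold higher (Bhlhe40) and 1 lower (Cd244), with a median log2 ratio of 0.15. Itgae was detected in 61.7% of Pdcd1-positive and 59.9% of Pdcd1-zero cells, with a CPM ratio of 0.950 (0.860–1.05), and Cxcr6, a chemokine receptor of resident cells, in 86.0% and 85.1%. Cd69 had a ratio of 0.809 (0.734–0.890), and Itgae and Cd69 were found together in 32.5% of Pdcd1-positive cells (27.7–37.6) and 34.5% of Pdcd1-zero cells (31.1–38.1). Of 19 genes of the T cell receptor complex and CD8, 0 were past 1.5-fold, and the median log2 ratio was -0.06. The killer lectin-like receptor genes Klrc1 and Klrd1, which together encode CD94/NKG2A, had ratios of 1.42 (1.29–1.56) and 1.44 (1.30–1.58). Among 16 measured of 25 listed recirculation genes, Ly6c2 was higher at a ratio of 2.20 (1.67–2.92), and Txnip and Ass1 were lower (Ass1 at 0.664, and 0.681 without its top cell), with a median log2 ratio of 0.23. Ly6c2 has a near-identical copy, and its reads may be shared with it.

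Genes of S phase were higher in pooled level, but not in every alternative. Of 12 measured of 20 listed, 6 were at least 1.5-fold higher in Pdcd1-positive cells and 0 lower, with a median log2 ratio of 0.51, and 1 of 12 measured G2 and M phase genes, Stmn1, was higher. Matched for depth by reweighting, the S phase median was -0.03, the G2 and M phase median was -0.77 (0.09 unmatched), the ratios of Mcm3, Mcm7, Rrm1, Tyms and Stmn1 were below 1, and Mcm5 and Hells were at 1.05 and 1.15. The S phase median was also -0.03 for cells with at least 2 Pdcd1 counts against 0, and -0.13 without cycling cells. At equal depth a count of any of 6 cycling genes was found in 12.9% of Pdcd1-positive cells (9.67–16.8) and 12.3% of Pdcd1-zero cells (10.03–14.9). Stmn1 was then detected in 14.5%, 21.2%, 18.8% and 14.8% of cells with 0, 1, 2 and 3 or more Pdcd1 counts. What moved these values was not tested.

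The remaining lists held at most 1 gene past 1.5-fold in each direction, where 3% of all measured genes were higher and 2.12% lower. Central memory and stemness had 1 higher and 1 lower of 6 measured (median log2 ratio -0.22), chemokine receptors and integrins 1 and 1 of 13 (-0.03), and growth arrest and survival 1 and 1 of 15 (0.19), of which Gadd45g was within 1.5-fold with depth matched. Glycolysis and hypoxia had 1 higher, Hif1a, and 0 lower of 15 (median log2 ratio 0.00). TGF-beta response, cytokine receptors, killer lectin-like receptors, heat shock, and sterol and lipid genes had 0 past 1.5-fold of 10, 10, 5, 11 and 3 measured. Their median log2 ratios, in this order, were 0.18, 0.22, 0.50, 0.11 and -0.03.

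The members were not uniform, and the level of several genes followed the Pdcd1 count. The cells with 1 count lie just inside the threshold and those with 0 just outside it. Gzma stood at 747, 1121, 2643 and 4565 CPM in cells with 0, 1, 2 and 3 or more Pdcd1 counts. Ifitm1 stood at 635, 1070, 2415 and 3421 CPM in the same order, and Tnfrsf9 at 24.7, 81.8, 119 and 304 CPM. Each of these levels was higher at each step, but single cells weighed on the top class. Of its 1863 Gzma counts, single cells held 305, 234, 166 and 119, and of its 124 Tnfrsf9 counts 30, 15 and 11. Levels of the class without these cells were not computed. At equal depth Tnfrsf9 was detected in 4.19%, 8.38%, 8.70% and 17.4% of cells in the same order. Fos ran the other way, at 1182, 805, 513 and 399 CPM, as did Dusp1, at 1551, 1340, 1207 and 730 CPM. Median depth was higher at each step too, at 2463, 2634.5, 2747.5 and 3058.5 counts. At equal depth Ifitm1 was detected in 18.9%, 32.4%, 50.7% and 54.8% of cells, Gzma in 22.2%, 35.2%, 40.6% and 44.3%, and Cd40lg in 23.0%, 16.2%, 11.6% and 10.4%. Fos was detected in 63.5%, 57.5%, 40.6% and 48.7%, with no order between the last 2 classes beyond their intervals. The chemokines were different: Ccl3 was at 93.1, 141, 190 and 2958 CPM, and Ccl1 at 667, 483, 2030 and 8192 CPM, high mainly in cells with 3 or more Pdcd1 counts, the class that holds the 5 cells described above. Ifng likewise stood at 1911, 1705, 1341 and 5168 CPM. Nr4a1 stood at 1375, 1380, 1307 and 1563 CPM and Itgae at 552, 539, 542 and 497 CPM.

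**Figure D4:**
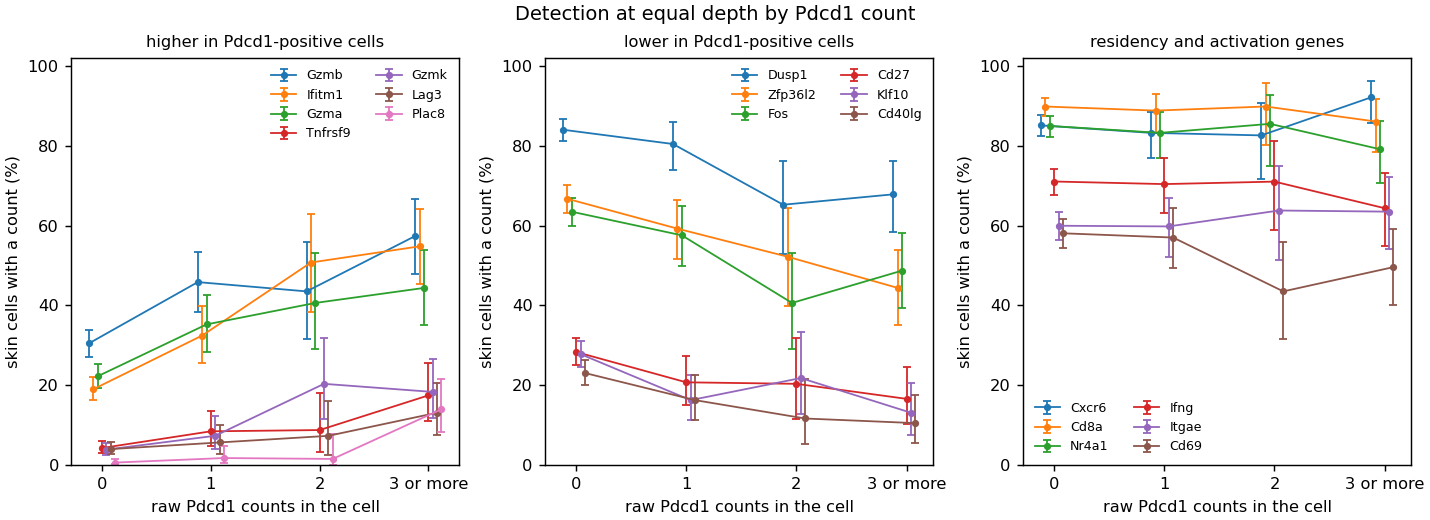
Share of skin cells with a count of each gene after thinning to 1852 counts, by raw Pdcd1 count of the cell (0, 1, 2, 3 or more; 739, 179, 69 and 115 cells), with 95% Clopper-Pearson intervals. Ifitm1, Gzma and Gzmb lie higher and Dusp1, Zfp36l2 and Cd40lg lower in cells with Pdcd1 counts, while Cxcr6, Cd8a and Itgae stay close to level.

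Granzyme and Ifitm genes were found in the same cells. Gzma and Ifitm1 were detected together in 104 of 363 Pdcd1-positive cells (28.7%, 24.1–33.6) and 64 of 739 Pdcd1-zero cells (8.66%, 6.73–10.9). All of Gzma, Gzmb and Ifitm1 were found in 22.0% of Pdcd1-positive cells and 5.95% of Pdcd1-zero cells. Another 169 Pdcd1-positive cells had neither Gzma nor Ifitm1. The 104 double-positive members, against the 169 with neither, had larger shares with Gzmk (30.8% and 1.18%), Ifitm2 (57.7% and 14.8%), Gzmb (76.9% and 31.4%), Lag3 (19.2% and 2.37%), Havcr2 (18.3% and 2.96%), Ly6c2 (16.3% and 2.37%) and Plac8 (15.4% and 0.592%). For each of these 7 genes the intervals did not overlap. The genes compared were a chosen set, and the share of all genes with such intervals was not computed. For the other genes of the set the intervals overlapped, among them Tnfrsf9 (18.3% and 7.10%), Ctla4 (14.4% and 5.33%) and Stat4 (17.3% and 7.69%). Shares of Itgae (54.8% and 62.7%), Cd69 (49.0% and 49.1%) and Fos (47.1% and 54.4%) had overlapping intervals, as did Xcl1 (18.3% and 27.8%). Among Pdcd1-zero cells the 64 double-positive cells had Gzmk in 18.8%, Gzmb in 68.8% and Ifitm2 in 59.4%, against 0.802%, 22.0% and 7.21% of the 499 with neither, and these intervals did not overlap either. For Lag3 (10.9% and 3.21%), Havcr2 (12.5% and 3.81%), Ly6c2 (9.38% and 2.40%) and Plac8 (4.69% and 0.200%) the intervals of the Pdcd1-zero cells overlapped. The chemokines did not follow Gzma in this way. Among members, 49.3% of those with Gzma (40.8–57.8) and 42.5% of those without it (35.9–49.3) had at least 1 of Ccl1, Ccl3 and Xcl1.

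The same split was made in the other tissues. Positive cells numbered 180 of 556 in liver, 150 of 2322 in lung and 113 of 1625 in lymph node. Their median depths were 3350.5 counts in liver, 4386.5 in lung and 2883 in lymph node, against 2981, 2872 and 2633.5 in the Pdcd1-zero cells. The share of genes at least 1.5-fold higher was 0.951% in liver, 2.73% in lung and 4.43% in lymph node, and the share at least 1.5-fold lower was 0.999%, 7.89% and 7.95%. The share of all measured genes with a ratio above 1 was not computed in these tissues, so counts of genes above 1 have no background here. Of the 15 genes higher in skin, 7 of 8 measured in liver, 9 of 10 in lung and 9 of 11 in lymph node had a ratio above 1, but 1, 2 and 6 passed 1.5-fold. Those past 1.5-fold were Plac8 in liver, Plac8 and Gzmk in lung, and Ifitm1, Lag3, Xcl1, Ifitm2, AA467197 and Uap1 in lymph node. Gzma had ratios of 1.30 in liver, 1.38 in lung and 1.33 in lymph node, against 3.52 in skin. Ifitm1 was at 1.08 in liver, 1.01 in lung and 2.28 in lymph node. Of the 15 genes lower in skin, 14 were measured in lung and 3 of these were at least 1.5-fold lower there (Fos, Klf10 and Impact), 14 were measured in lymph node with 0 lower, and 5 in liver with 0 lower. Ratios above 1 were seen for 3 of the 5 in liver, 5 of the 14 in lung and 6 of the 14 in lymph node, among them Cd244 in lung (1.72) and Klf10 in lymph node (1.76), past 1.5-fold in the opposite direction. The differences between tissues were not tested.

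**Figure D5:**
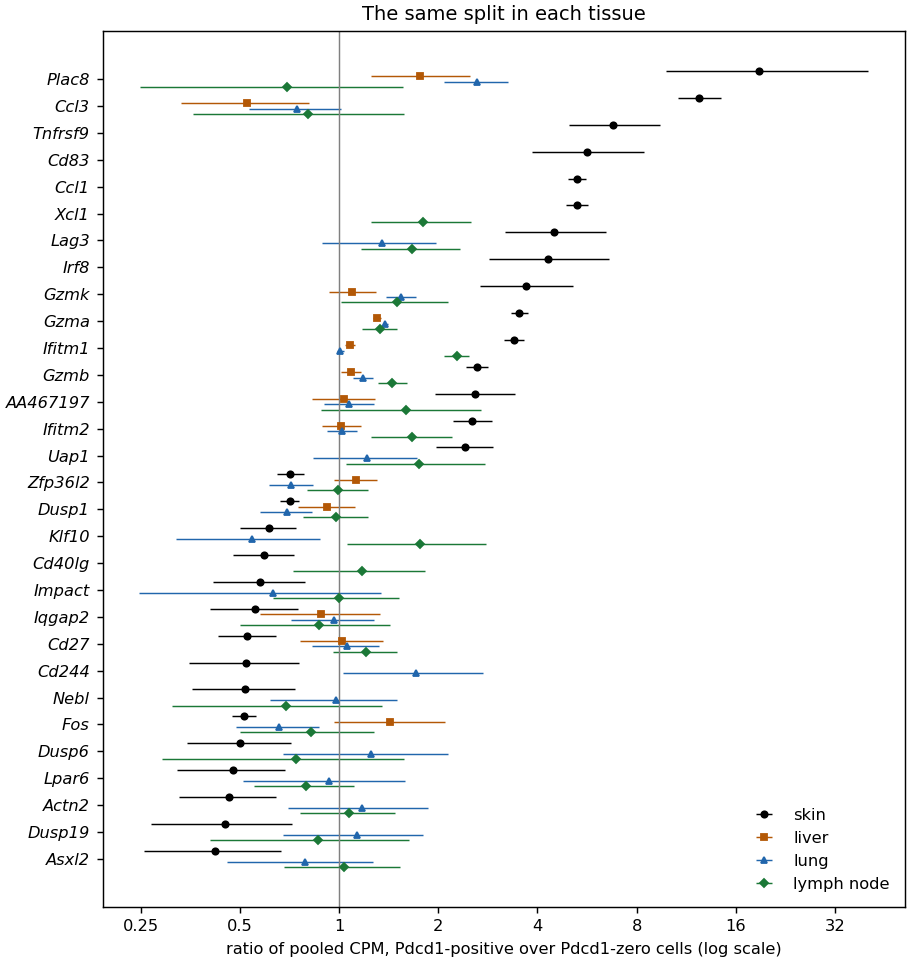
Ratio of pooled CPM, Pdcd1-positive over Pdcd1-zero cells (log scale), in skin, liver, lung and lymph node for the 30 named genes where at least 100 counts were summed in the tissue, with 95% counting intervals. The skin ratios of Ccl3, Gzma and Gzmb lie to the right of those of the other tissues.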

How the data were processed

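The deposited table held whole-number counts of 9223 genes in 5727 cells. The submitters' processing notes name Bowtie, RSEM and mm10, without versions. The sources used here do not say whether the counts are of molecules or reads, or how cells were filtered. Columns name the tissue and not the lane, so each of the 4 tissues was taken as 1 library of 4 lanes (16 samples), and 0 columns were left unused. Total counts were 3292210 for the skin library. Per the labels' protocols, skin cells were freed by mincing and digestion with collagenase IV plus DNase.

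From the counts, pooled CPM, ratios with exact Poisson 95% intervals and shares at equal depth were computed with Python 3.11.15, numpy 2.4.6, pandas 2.3.3 and scipy 1.17.1. Genes with 100 or more summed counts in a tissue are called measured, and 1.5-fold was the size counted. The 30 named genes were, leaving out Pdcd1 and ribosomal, mitochondrial, receptor segment, immunoglobulin and predicted genes, the 15 higher and the 15 lower genes whose interval stayed farthest from a ratio of 1, both with all cells and without the gene's top cell. Members of the 24 gene lists and 13 marker lists could also be named. The members and lists were chosen with earlier results of these data known. Scrublet, through scanpy 1.11.5, called 27 doublets in skin (2.21%, 11 of them Pdcd1-positive), which were kept. Of 481 list and marker symbols 406 were in the table. Melanocyte, fibroblast, mast cell and erythroid markers, Cd4 and Foxp3 were not among its genes. Ribosomal genes took 18.7% of counts in Pdcd1-positive and 19.4% in Pdcd1-zero cells, and mitochondrial genes 1.56% and 1.66%. The computation was tested on simulated Poisson counts summed per side. These held no variation between cells, so the test checked the calculation and not how well the intervals cover such variation. Depth was matched over 10 bins of counts per cell. For each ratio 15 alternatives were computed, of which 3 were chosen after seeing the data: leaving out 5 top cells per gene, cells with gamma-delta genes, and barcodes shared between tissues. Promoter sequences are RefSeq's on GRCm38.p6.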

Additional observations from a re-analysis of the deposited data

Results flagged for a closer look

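For 3 of the named genes the ratio of Pdcd1-positive over Pdcd1-zero cells lay past 1.5-fold in opposite directions in skin and another tissue. These differences were not tested, and each tissue was taken as 1 library. Ccl3 had a ratio of 0.525 in liver, from 28 counts in Pdcd1-positive and 94 in Pdcd1-zero cells, against 12.4 in skin. Klf10 had a ratio of 1.76 in lymph node, against 0.61 in skin. Cd244 had a ratio of 1.72 in lung, against 0.52 in skin.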

How the results depend on the processing

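Of the 30 named genes, 29 lay on the same side of 1 in every alternative that gave a value. The exception was Dusp1, at 1.35 among cells without Nr4a1 counts. With all cells 28 of the 30 lay past 1.5-fold, and 28 did without the 11 cells with shared barcodes, 28 without called doublets 27 of the 29 still measured without cells with gamma-delta genes, 27 without the top 5 cells of each gene, 26 with depth matched (15 of the higher and 11 of the lower) and 7 of the 10 still measured among cells without Nr4a1 counts (7 of 7 higher and 0 of 3 lower, Fos being at 0.707). The number of genes at least 1.5-fold higher was 106, and was 389 with a minimum of 30 counts, 31 with a minimum of 300, 34 among cells without Nr4a1 counts and 68 without the top 5 cells of each gene. The number at least 1.5-fold lower was 75, and was 490, 10 and 19 in the first 3 of these and 151 with a Pdcd1 count of at least 2 against 0. The minimum sets how many genes were tested, 6810 at 30 counts and 1437 at 300, against 3534 in the main setting. Only 531 genes were measured among cells without Nr4a1 counts, and 3120 with a Pdcd1 count of at least 2. In both settings the share of measured genes past 1.5-fold was larger in each direction than in the main setting. What moved these shares was not tested, nor was the cause of the lower count without the top 5 cells, where 3534 genes were measured. Without the deepest 5% of cells Ifng had a ratio of 0.889, and without its top 5 cells 0.843. With depth matched, Mcm3 was at 0.946, Mcm7 at 0.982, Rrm1 at 0.982, Tyms at 0.972 and Stmn1 at 0.826. The Pdcd1-positive share, 30.9% in skin, 32.4% in liver, 6.46% in lung and 6.95% in lymph node as deposited, was 27.0%, 23.4%, 3.42% and 5.09% at equal depth, and 15.5%, 12.2%, 0.732% and 0.677% with at least 2 counts. Counting error limits the scarce genes, of which Plac8 had 10 counts in Pdcd1-zero cells. No paired analysis was possible because the columns carry no replicate numbers and no result comes from a test.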
